A study of Homo sapiens with 14 samples.

Results

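Untreated HepG2 cells grown on transwell membranes were compared with untreated HepG2 cells grown on culture dishes, across all 13247 genes that reached at least 1 CPM (a gene's counts scaled to a fixed library size) in 2 of these 4 libraries, out of 56479 genes in the deposited table. HepG2 is a human hepatoblastoma line with a wild-type label, and no library compared here had been compressed or given polyethylene glycol (PEG). The transwell group held 2 libraries of uncompressed cells in regular isotonic medium, whose time in culture the labels leave unstated. The dish group held 2 libraries of cells kept on plastic plates for 5 days in isotonic DMEM with fetal bovine serum. The series holds 14 libraries, of which 6 are of a second liver cancer line, Hep3B, on transwells (uncompressed, under a weight or in 3% PEG), and these enter only the fit on all libraries. The other HepG2 groups used here for their levels were cells under a weight on transwells and cells in 4% PEG on dishes, with 2 libraries each. The labels call the dish libraries biological replicates and only number the transwell libraries, and neither is tied to separate cultures, so p-values measure only the spread between these samples, which may be technical. Culture surface, time in culture and sequencing run cannot be told apart in this comparison, because the labels tie no instrument to a library and each surface is a group of its own.

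A transwell is a cup with a porous membrane as its floor, which lets medium reach the cells from above and from below. Hepatocyte-like cells use much oxygen, and the hypoxia-inducible factors, which are destroyed while oxygen is plentiful, switch on genes for vessel growth, acid balance and collagen processing when it runs short. Fed and fasted liver differ in gluconeogenesis, which insulin and glucose restrain, and dividing cells switch on DNA replication genes through the E2F factors as they enter S phase.

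Total counts were 25.4 M and 27 M in the transwell libraries, against 35.4 M and 25.8 M in the dish libraries. All 10 hepatocyte-lineage markers were tested, and their summed level was 82200 and 88600 CPM on transwells, against 114000 and 107000 CPM on dishes. ALB and AFP, which encode albumin and alpha-fetoprotein, averaged 36400 and 19000 CPM on transwells and 46600 and 20500 CPM on dishes, so both groups carried hepatic transcripts. In bulk samples, fewer cells of a type and less RNA per cell cannot be told apart. Fibroblast markers COL1A2 and DCN, endothelial KDR, macrophage CD163 and MARCO, and lymphocyte PTPRC and CD3E had no count in any of the 4 libraries, and summed lymphocyte markers stayed between 0.558 and 1.14 CPM. Summed fibroblast markers stood at 22.8 and 21.7 CPM on transwells, against 10.6 and 16.1 CPM on dishes, nearly all of it PDGFRB. Summed endothelial markers stood at 5.94 and 5.96 CPM on transwells, against 10.2 and 12.9 CPM on dishes. Summed macrophage markers stood at 1.73 and 2.3 CPM on transwells, against 2.29 and 4.24 CPM on dishes. Mitochondrially encoded mRNA took 1.96% and 0.528% of transwell counts, against 1.29% and 0.661% of dish counts, so these shares overlapped.

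The replicates were not equally close. The biological coefficient of variation was 0.0617 between the transwell libraries and 0.312 between the dish libraries. The difference between the dish libraries followed the GC content of the genes: the median log2 ratio of dish replicate 1 over replicate 2 was 0.48 in the tenth of genes with the lowest GC content and -1.11 in the tenth with the highest. Between the transwell libraries these medians were 0.05 and -0.04. The dish libraries deviated in opposite directions, so their mean stayed level: transwell over dish had bin medians between -0.01 and 0.1. After a per-library correction for GC content, the dish coefficient of variation was 0.183.

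**Figure D1:**
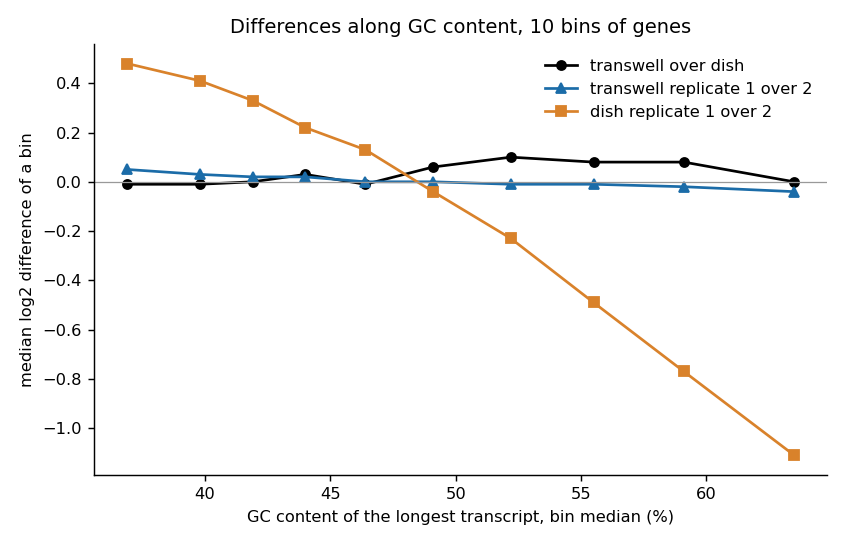
Median log2 difference (y axis) in 10 bins of genes ordered by the GC content of the longest transcript (x axis, percent); the lines show transwell over dish and replicate 1 over replicate 2 within each group. The dish replicates run from 0.48 to -1.11 along GC content, while transwell over dish stays between -0.01 and 0.1.

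With this spread, edgeR's quasi-likelihood test on the 4 libraries called no gene after Benjamini-Hochberg adjustment (0 of 13247, 0%; smallest adjusted p 0.0565). DESeq2 on the same libraries called 475 genes. Without dish replicate 1 or dish replicate 2, edgeR called 8134 and 8979 genes, the lone dish library then being assumed to vary like the transwell pair; without either transwell library it called 5. Without adjustment, 2197 genes (16.6%) had an edgeR p under 0.05, of which 879 (6.64%) were higher and 1318 (9.95%) lower on transwells. An exact permutation test of 2 against 2 libraries cannot go below a two-sided p of 0.333. The GC-corrected edgeR fit called 1669 genes (12.6%): 671 (5.07%) rose and 998 (7.53%) fell on transwells. In an edgeR fit that pooled the spread of all 14 libraries, the 6 Hep3B libraries included, 2038 genes (15.4%) passed, 877 (6.62%) higher and 1161 (8.76%) lower. These fits shared 1275 calls. No gene was called in opposite directions, but both fits take this contrast from the same 4 libraries, so the match adds no support. Most of the 14 libraries were on transwells, so the pooled spread may be too small for a contrast with dish libraries. The planned test was the uncorrected fit on the 4 libraries. Because it called no gene, the GC-corrected fit, listed as an alternative, was taken for the calls. In what follows, "rose" and "fell" refer to calls of the GC-corrected edgeR fit at an adjusted p of 0.05. None of these genes passed the planned test. Log2 fold changes with standard errors (SE) come from the uncorrected fit on the 4 libraries. Levels are CPM on TMM-scaled library sizes.

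Both transwell libraries were above both dish libraries for 3750 genes (28.3%) and below both for 3037 genes (22.9%), shares that serve as the background for each gene list. For calls within a list, the background is the 5.07% of all tested genes that rose and the 7.53% that fell. These shares include pseudogenes, of which 71.8% lay below and 339 fell. Among the 11280 nuclear protein-coding genes alone, 30.5% lay above and 17.9% below, and 639 rose beside 626 falls. The median log2 fold change over all tested genes was 0.03 with TMM scaling and 0.19 with total counts alone, a shift that applies to every gene alike. A total of 1029 genes differed by at least 1 on the log2 scale, and more of them were lower (789) than higher (240) on transwells. Of the 789 lower genes, 503 were pseudogenes and 240 protein-coding, whereas 194 of the 240 higher genes were protein-coding. Of the tested genes, 12111 reached 1 CPM in all 4 libraries, 263 did so in both dish libraries and neither transwell library, and 161 in both transwell libraries and neither dish library. The filter let these last groups in only through the side where they were higher, so they had to differ, and they are named as such where they appear.

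A wide fall was that of PCK1, which encodes the cytosolic phosphoenolpyruvate carboxykinase that commits carbon to gluconeogenesis (ENSG00000124253, GRCh38 chromosome 20, 57561080 to 57568112). PCK1 had 36.6 and 35.1 CPM on transwells, against 351 and 357 CPM on dishes. Each group was tight and the gap between them wide. The log2 fold change was -3.31 ± 0.147 (SE, n = 2 each; GC-corrected edgeR adjusted p = 0.00123). G6PC1, the catalytic subunit of glucose-6-phosphatase, which releases free glucose, had 139 and 138 CPM on transwells, against 386 and 357 CPM on dishes, and fell by 1.42 on the log2 scale (SE 0.141). GBE1, the glycogen branching enzyme, fell as well, with 151 and 142 CPM on transwells, against 291 and 270 CPM on dishes. These 3 were the falls among 11 tested genes of gluconeogenesis and glycogen, of which 6 lay wholly below the dish libraries, 0 wholly above, and the median log2 fold change was -0.28. PPARGC1A, a coactivator of the fasting programme, had 82.1 and 79.5 CPM on transwells, against 116 and 105 CPM on dishes, and did not pass (GC-corrected edgeR adjusted p = 0.0546). PCK2, the mitochondrial isoenzyme of PCK1, overlapped between the groups, at 186 and 202 CPM on transwells and 83.7 and 231 CPM on dishes.

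Genes that fasting or low nutrient supply is known to move were mixed. Of 17 tested, 10 (58.8%) lay below and 6 (35.3%) above the dish libraries, with a median log2 fold change of -0.46. TXNIP, an arrestin that restrains glucose uptake, had 140 and 140 CPM on transwells, against 370 and 368 CPM on dishes. Its relative ARRDC3 had 24 and 20.4 CPM on transwells, against 63 and 58.2 CPM on dishes. These arrestin genes fell, by 1.4 and 1.45 on the log2 scale. So did KLF9, GADD45A and GADD45B, whereas FKBP5, SESN3 and TSC22D3 rose, which makes 5 falls and 3 rises among 17 tested genes of this list. TSC22D3, with 1.2 and 1.22 CPM on transwells, against 0.453 and 0.448 CPM on dishes, passed the filter only through the transwell libraries. In fatty acid oxidation only 2 of 24 tested genes passed, both downward, a share near the 7.53% of all tested genes that fell. CPT1A, the gatekeeper of mitochondrial fatty acid import, had 88.9 and 86.5 CPM on transwells, against 180 and 183 CPM on dishes. VNN1, a pantetheinase induced through PPARA in mouse liver, had 8.87 and 7.29 CPM on transwells, against 39.9 and 32.8 CPM on dishes, a log2 fold change of -2.17 ± 0.226 (SE). The list as a whole had 6 members above and 7 below the dish libraries, with a median of -0.04 that became 0.13 with total-count scaling.

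**Figure D2:**
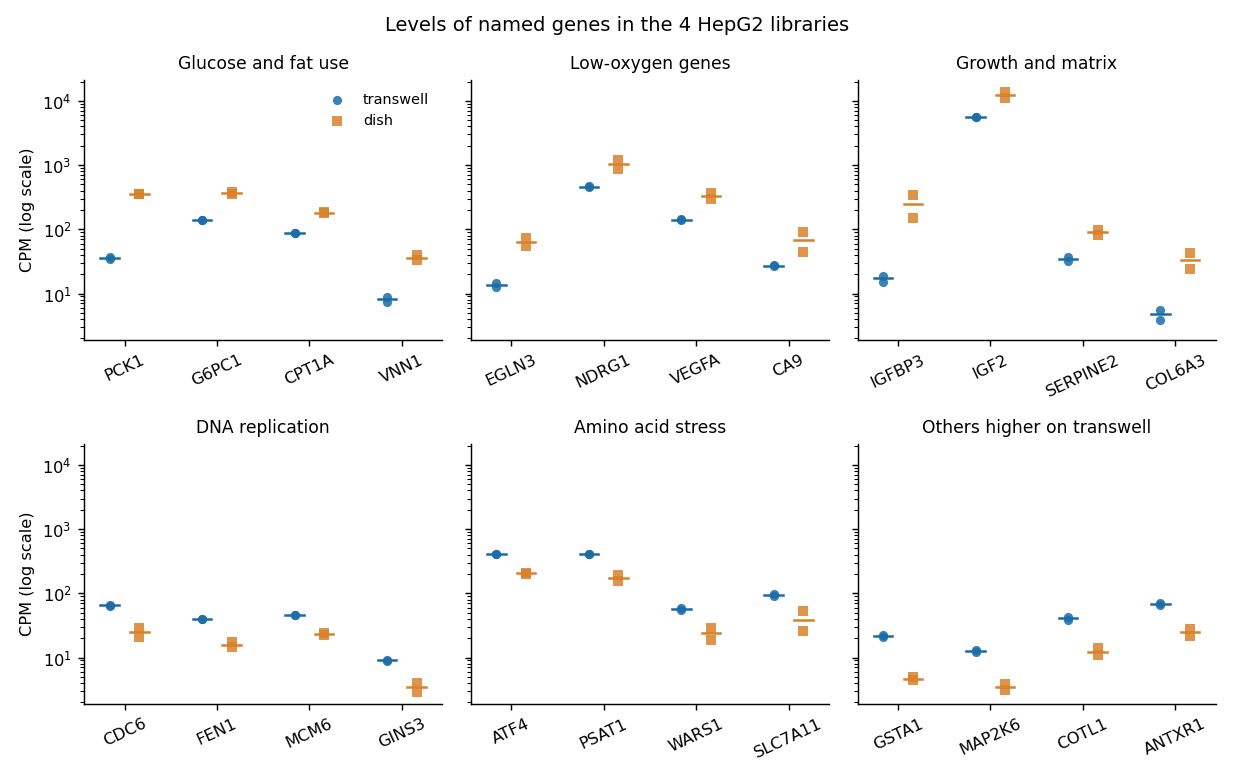
Normalised level in CPM (y axis, log scale) of 24 genes in each HepG2 library, with transwell libraries as circles and dish libraries as squares; short lines are group means of 2 libraries. The genes of the upper row lie lower on transwells (PCK1 at 36.6 and 35.1 CPM, against 351 and 357 CPM on dishes), and those of the lower row lie higher (CDC6 at 66.7 and 63.5 CPM, against 29.3 and 21.1 CPM on dishes).

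Genes of the hypoxia response were lower on transwells. Of 25 tested members outside glycolysis, 18 (72%) lay wholly below the dish libraries and 1 above. The median log2 fold change was -0.84, and 14 fell and 0 rose. The factors bind a short core, ACGTG, and 3 promoters of genes that fell are shown with that core in capitals on either strand. They come from RefSeq on GRCh38.p14 and run from 250 bases before to 50 bases after the gene's start: CA9 at chr9:35673678-35673977 (plus strand), ANKRD37 at chr4:185396591-185396890 (plus) and BHLHE40 at chr3:4979187-4979486 (plus).
CA9: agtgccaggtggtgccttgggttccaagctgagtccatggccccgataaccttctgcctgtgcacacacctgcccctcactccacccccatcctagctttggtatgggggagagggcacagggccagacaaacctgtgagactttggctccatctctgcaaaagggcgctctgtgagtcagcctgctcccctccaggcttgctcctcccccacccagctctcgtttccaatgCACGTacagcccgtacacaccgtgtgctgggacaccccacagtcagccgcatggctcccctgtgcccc
ANKRD37: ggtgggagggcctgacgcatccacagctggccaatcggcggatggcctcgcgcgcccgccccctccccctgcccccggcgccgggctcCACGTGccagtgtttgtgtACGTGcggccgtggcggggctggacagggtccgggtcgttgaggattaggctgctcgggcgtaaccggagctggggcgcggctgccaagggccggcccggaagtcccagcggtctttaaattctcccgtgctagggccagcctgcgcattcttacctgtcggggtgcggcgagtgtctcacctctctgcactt
BHLHE40: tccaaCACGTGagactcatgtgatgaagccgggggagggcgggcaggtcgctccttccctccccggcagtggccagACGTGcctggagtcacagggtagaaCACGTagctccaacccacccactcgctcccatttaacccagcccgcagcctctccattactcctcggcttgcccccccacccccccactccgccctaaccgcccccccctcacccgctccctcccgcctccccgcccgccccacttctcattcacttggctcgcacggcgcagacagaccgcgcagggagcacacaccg
Promoters were matched for 21 of the 25 members, and 13 of them (61.9%) held ACGTG on either strand, against 2621 of 9670 promoters of tested genes (27.1%). A match is a run of letters and not a bound site. The core overlaps the E-box CACGTG, in which it reads on both strands.

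EGLN3, an oxygen sensor that marks the factors for destruction and is itself their target, showed the widest fall of the list (chromosome 14, 33924231 to 34462774, GRCh38). It had 14.6 and 12.5 CPM on transwells, against 54.2 and 73.1 CPM on dishes, a log2 fold change of -2.23 ± 0.231 (SE; GC-corrected edgeR adjusted p = 0.0147). Its relative EGLN1 overlapped between the groups, at 153 and 142 CPM on transwells and 151 and 188 CPM on dishes. VEGFA, the growth factor for vessels, had 145 and 139 CPM on transwells, against 298 and 369 CPM on dishes, and fell by 1.23 on the log2 scale (SE 0.169). NDRG1, a stress-responsive protein used as a marker of low oxygen, had 473 and 450 CPM on transwells, against 865 and 1210 CPM on dishes. BHLHE40, a repressor with a clock role, had 229 and 217 CPM on transwells, against 511 and 504 CPM on dishes. For EGLN3, VEGFA, NDRG1 and BHLHE40 both transwell libraries lay below both dish libraries.

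CA9, the carbonic anhydrase of the cell surface, had 28 and 26.6 CPM on transwells, against 43.6 and 92.4 CPM on dishes. ANKRD37, whose promoter holds the core in a pair of places, had 3.42 and 3.8 CPM on transwells, against 9.87 and 14.7 CPM on dishes. ANGPTL4, a secreted inhibitor of lipoprotein lipase, had 6.46 and 6.73 CPM on transwells, against 9.69 and 38.7 CPM on dishes. All 3 fell, but for CA9 and ANGPTL4 the dish libraries stood far apart, with replicate 2 the higher. The collagen-modifying enzymes PLOD2 and P4HA1 fell too, by 0.95 and 0.84 on the log2 scale, as did ERO1A, an oxidase of the endoplasmic reticulum, by 0.93. The single member above the dish libraries was DDIT4, an inhibitor of mTORC1, with 54.6 and 52.8 CPM on transwells, against 42.7 and 46.3 CPM on dishes; it did not pass. EPO, the classical target in liver and kidney, overlapped, at 14.6 and 12.3 CPM on transwells and 7.64 and 19.9 CPM on dishes.

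Glycolysis held fewer calls. Of 24 tested genes, 10 lay wholly below and 4 wholly above the dish libraries, with a median of -0.31; 5 fell and 1 rose. The falls were ENO2, HK1, HK2, PGK1 and ALDOC. ENO2, an enolase isoform, had 60.3 and 56.1 CPM on transwells, against 108 and 139 CPM on dishes. PGK1, phosphoglycerate kinase, had 1030 and 1040 CPM on transwells, against 1550 and 1670 CPM on dishes. The rise was SLC2A1, the glucose carrier GLUT1, with 627 and 620 CPM on transwells, against 370 and 520 CPM on dishes. LDHA, TPI1 and PKM did not pass. The list's median was -0.05 against dish replicate 1 alone and -0.53 against dish replicate 2 alone, and its difference from the hypoxia list was not tested.

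The genes of DNA replication ran the other way. Of 37 tested members, 35 (94.6%) lay wholly above the dish libraries and 0 below. The median log2 fold change was 0.72 with a range of 0.13 to 1.37, and 27 rose and 0 fell. In the fit on 14 libraries 25 passed, all higher. The forms TTCCCGC and TTGGCGC of the E2F element were searched on both strands after these values had been seen, and the promoters of CDC6 at chr17:40287629-40287928 (plus strand) and MCM6 at chr2:135876394-135876693 (minus strand), again RefSeq on GRCh38.p14, are shown with them in capitals.
CDC6: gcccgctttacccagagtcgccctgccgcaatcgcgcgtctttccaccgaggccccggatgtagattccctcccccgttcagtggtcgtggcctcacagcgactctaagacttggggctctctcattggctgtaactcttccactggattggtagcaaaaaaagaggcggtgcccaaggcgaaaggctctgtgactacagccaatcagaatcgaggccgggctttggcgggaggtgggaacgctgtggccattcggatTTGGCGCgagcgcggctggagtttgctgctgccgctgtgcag
MCM6: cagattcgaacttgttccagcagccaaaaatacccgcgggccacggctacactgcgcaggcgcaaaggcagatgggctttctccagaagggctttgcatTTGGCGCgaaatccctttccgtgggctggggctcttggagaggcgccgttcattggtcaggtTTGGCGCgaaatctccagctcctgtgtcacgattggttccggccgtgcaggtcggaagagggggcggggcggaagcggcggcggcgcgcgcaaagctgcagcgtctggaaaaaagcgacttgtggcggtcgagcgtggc
Either form stood in 21 of the 32 matched promoters (65.6%), against 1456 of 9670 promoters of tested genes (15.1%). Such excesses also stood in lists with smaller medians: TTTGAA, a cell cycle element, was in 18 of 26 mitosis promoters (69.2%, against 9.7% of all), and CATTCC, bound by TEAD factors, in 6 of 14 promoters of YAP and TEAD targets (42.9%, against 10.8%). GCGTG, the aryl hydrocarbon element core, went the other way, in 4 of 17 promoters of drug-metabolising enzymes (23.5%, against 51.2%). A metal element, TGCGCNC, was near its share of all promoters (33.3% of its list, against 31.2%), and the remaining motifs searched were above theirs. The shares describe the lists, and their relation to the change on transwells was not tested.

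CDC6, which loads the replicative helicase onto origins (chromosome 17, 40287633 to 40304657, GRCh38), had 66.7 and 63.5 CPM on transwells, against 29.3 and 21.1 CPM on dishes. Its log2 fold change was 1.37 ± 0.219 (SE; GC-corrected edgeR adjusted p = 0.0151). The helicase subunit MCM6 had 45.8 and 46.1 CPM on transwells, against 23.8 and 22.6 CPM on dishes. MCM2, MCM3, MCM4 and MCM7 rose as well, by 0.67 to 0.74 on the log2 scale, and MCM5 had 41.9 and 43.3 CPM on transwells, against 14 and 33.2 CPM on dishes, without passing. The 4 subunits of the GINS complex, which joins the helicase at the fork, all rose: GINS1 by 0.91, GINS2 by 1.07, GINS3 by 1.37 and GINS4 by 1.29 on the log2 scale.

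FEN1, the nuclease that trims the flaps of Okazaki fragments, had 40.2 and 39.2 CPM on transwells, against 14.4 and 17.3 CPM on dishes, a log2 fold change of 1.33 ± 0.19 (SE). The sliding clamp PCNA had 221 and 212 CPM on transwells, against 132 and 123 CPM on dishes. UHRF1, which hands DNA methylation on to the new strand, and which stood outside this list, had 50.7 and 42.6 CPM on transwells, against 15.8 and 18.7 CPM on dishes, and rose. E2F1, a driver of S-phase entry, rose by 0.78 on the log2 scale. The nucleotide enzymes RRM1 and TK1 rose by 0.63 and 0.81, while TYMS, with 89.8 and 87.7 CPM on transwells and 71 and 69.9 CPM on dishes, did not pass. The members whose dish values overlapped the transwell values were POLD1 and CCNE2. Replication-dependent histone genes, a separate list, went the other way: of 6 tested, 0 lay above and 4 below the dish libraries, with a median of -0.47. None of them passed, and most histone genes of the list had too few counts to be tested.

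Mitosis genes had a smaller median. Of 32 tested members, 13 (40.6%) lay above the dish libraries and 0 below, with a median of 0.23. A share near the 5.07% of all tested genes rose, namely 2: FOXM1, a transcription factor of late cycle genes, and MAD2L1, a spindle checkpoint protein. FOXM1 had 57.6 and 57.2 CPM on transwells, against 30.9 and 35.4 CPM on dishes. The median difference between the dish libraries themselves was 0.58 for this list, and it was -0.13 for the replication list. Set against dish replicate 1 alone, the mitosis median was -0.08, and against dish replicate 2 alone 0.6. TOP2A, a topoisomerase of dividing cells, had 636 and 660 CPM on transwells, between the 868 and 452 CPM of the dish libraries. The difference between the lists was not tested.

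**Figure D3:**
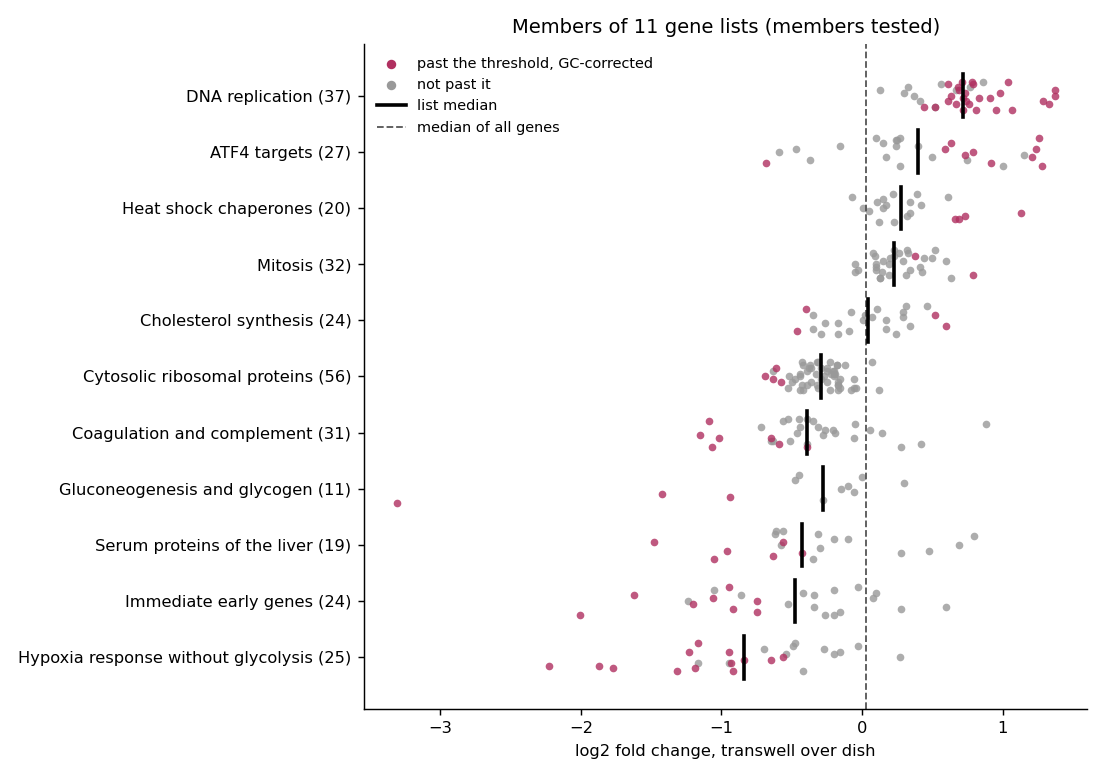
Log2 fold change of transwell over dish (x axis) for each tested member of 11 gene lists (rows, with the number of members tested); coloured points passed the GC-corrected edgeR fit, black bars are list medians and the dashed line is the median of all genes. The replication list sits highest, with a median of 0.72, and the hypoxia list lowest, with a median of -0.84.

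Genes of the amino acid stress response were higher. ATF4, the transcription factor of that response, had 404 and 415 CPM on transwells, against 208 and 202 CPM on dishes, a log2 fold change of 1 ± 0.136 (SE), yet it missed the threshold in the GC-corrected edgeR fit (adjusted p = 0.0572). Of 27 tested ATF4 targets, ATF4 included, 18 (66.7%) lay above the dish libraries and 2 below, with a median of 0.4; 9 rose and 1 fell. PSAT1, of serine synthesis, had 416 and 414 CPM on transwells, against 158 and 195 CPM on dishes. MTHFD2, a mitochondrial folate enzyme, had 295 and 289 CPM on transwells, against 153 and 157 CPM on dishes. WARS1, the tryptophan transfer RNA synthetase, had 59 and 55.8 CPM on transwells, against 18.9 and 28.9 CPM on dishes. These 3 rose, as did ALDH1L2, SHMT2, AARS1, TRIB3, SESN2 and the cystine carrier SLC7A11. DDIT3 and ASNS, which the same response is known to induce, overlapped between the groups: DDIT3 had 10.4 and 10.6 CPM on transwells and 8.27 and 10.4 CPM on dishes. The fall was GDF15, a secreted stress hormone, which had 139 and 146 CPM on transwells and 138 and 319 CPM on dishes, so that the groups overlapped before the GC correction. The median of the list was 0.78 against dish replicate 1 alone and 0.22 against dish replicate 2 alone.

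Several chaperones of the heat shock response were higher. Of 20 tested, 10 (50%) lay above and 0 below the dish libraries, with a median of 0.28, and 4 rose. HSPA8, the constitutive HSP70, had 1080 and 1020 CPM on transwells, against 504 and 457 CPM on dishes, and rose by 1.13 on the log2 scale (SE 0.148; GC-corrected edgeR adjusted p = 0.0147). DNAJA1, CHORDC1 and HSPH1 were the other rises. The stress-inducible HSPA1A and HSPA1B, near-identical neighbours whose reads counting may split, overlapped between the groups. The list's median was 0.19 against dish replicate 1 alone and 0.44 against dish replicate 2 alone.

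Among glutathione transferases, GSTA1 had 20.6 and 22.2 CPM on transwells, against 4.53 and 4.89 CPM on dishes, a log2 fold change of 2.18 ± 0.208 (SE; GC-corrected edgeR adjusted p = 0.0147; chromosome 6, 52791664 to 52803910, GRCh38). GSTA2 had 3.95 and 4.43 CPM on transwells, against 0.513 and 0.733 CPM on dishes, and passed the filter only through the transwell libraries. The pair are close copies, so how reads fell between them is uncertain. NQO1 and GPX2, targets of the antioxidant factor NRF2, rose by 0.93 and 0.98 on the log2 scale, but in the list of 28 tested NRF2 targets only 3 rose and 1 fell, with a median of 0.15. Among 20 tested drug-metabolising enzymes, of which 3 passed the filter only through the transwell libraries and 1 only through the dish libraries, 2 rose (GSTA1 and GSTA2) and 5 fell: CES1, a carboxylesterase, had 51.2 and 57 CPM on transwells, against 109 and 162 CPM on dishes.

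Further named rises outside the accounts above were picked after their values had been seen. MAP2K6, a kinase upstream of p38, had 13.2 and 12.4 CPM on transwells, against 3.9 and 3.1 CPM on dishes. COTL1, an actin-binding protein, had 37.8 and 43.3 CPM on transwells, against 10.9 and 13.9 CPM on dishes. ANTXR1, a receptor that binds collagen, had 69.6 and 66.9 CPM on transwells, against 27.5 and 22 CPM on dishes. SULF2, which edits heparan sulphate, had 52.7 and 50 CPM on transwells, against 16.1 and 20.7 CPM on dishes. SPP1, which encodes osteopontin, had 315 and 294 CPM on transwells, against 148 and 133 CPM on dishes; it is also a bile duct marker, and the summed bile duct markers stood at 788 and 757 CPM on transwells, against 698 and 651 CPM on dishes. In each of these the groups differed by more than the spread between replicates, which their choice by value had largely fixed in advance.

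Several growth factor and matrix genes were lower. IGFBP3, a binding protein that holds insulin-like growth factors outside the cell (chromosome 7, 45912245 to 45921874, GRCh38), had 18.9 and 15.4 CPM on transwells, against 340 and 151 CPM on dishes. Its log2 fold change of -3.84 ± 0.462 (SE; GC-corrected edgeR adjusted p = 0.0185) was wide against a dish pair that itself differed by 1.17 on the log2 scale. IGF2, the fetal growth factor, had 5580 and 5610 CPM on transwells, against 11000 and 14000 CPM on dishes. Of 10 tested genes of the IGF system, 6 lay below and 0 above the dish libraries, with a median of -0.4; 4 fell, the others being the insulin receptor INSR and its adaptor IRS1.

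SERPINE2, a secreted protease inhibitor, fell by 1.37 on the log2 scale and had 37.2 and 32.5 CPM on transwells, against 97.7 and 82 CPM on dishes. COL6A3, a chain of collagen VI, had 5.64 and 3.84 CPM on transwells, against 43.1 and 24.3 CPM on dishes. LOXL3, a collagen cross-linking oxidase, had 2.1 and 2.27 CPM on transwells, against 9.72 and 17.9 CPM on dishes. COL6A3 and LOXL3 stood outside the list of collagens and collagen enzymes, whose lowest log2 fold change was -1.31. Of 14 tested members of that list, 5 fell and 2 rose, with a median of -0.46 that was -0.18 against dish replicate 1 alone. A rise was COL1A1, which passed the filter only through the transwell libraries, at 1.69 and 1.33 CPM on transwells, against 0.181 and 0.326 CPM on dishes, with its partner chain COL1A2 at 0 in every library. The part of other cell types in the matrix genes was not tested. Junction genes held 5 falls and 1 rise among 27 tested: CDH1, the adhesion protein E-cadherin, had 28.7 and 30.1 CPM on transwells, against 52.5 and 91.2 CPM on dishes. Targets of YAP and TEAD, which respond to stiffness and spreading, held 5 falls and 0 rises among 21, with a median of -0.17 that became 0 with total-count scaling, -0.48 against dish replicate 1 alone and -0.04 against dish replicate 2 alone.

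Immediate early genes, which growth factors and handling switch on within minutes, were lower. Of 24 tested, 16 (66.7%) lay below and 2 above the dish libraries, with a median of -0.48, and 8 fell and 0 rose. FOS had 2.22 and 2.02 CPM on transwells, against 9.87 and 7.17 CPM on dishes. DUSP1, a phosphatase that shuts down MAP kinases, had 28.7 and 26.8 CPM on transwells, against 93.4 and 77 CPM on dishes. JUN, the partner of FOS, had 35 and 32.9 CPM on transwells, against 75 and 66.9 CPM on dishes. For these genes, named for their small p within the list, the difference between groups was larger than that between replicates, as that choice favours. DUSP6 and SPRY2, feedback genes of ERK, overlapped between the groups.

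Many secreted liver products were lower. Of 19 tested serum proteins, 14 (73.7%) lay below and 3 above the dish libraries, with a median of -0.43 (-0.25 against dish replicate 1 alone); 6 fell and 0 rose. VTN, vitronectin, had 90.2 and 95.5 CPM on transwells, against 136 and 380 CPM on dishes. SERPINA1, alpha-1-antitrypsin, had 7220 and 7080 CPM on transwells, against 9680 and 11400 CPM on dishes. Albumin, at 36300 and 36600 CPM on transwells and 46500 and 46700 CPM on dishes for ALB, was lower without passing, and TTR, transthyretin, was higher, at 299 and 308 CPM on transwells and 199 and 237 CPM on dishes, also without passing.

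Of 31 tested coagulation and complement genes, 7 fell and 0 rose, with a median of -0.39. C3, the central complement protein, had 3630 and 3720 CPM on transwells, against 6990 and 8610 CPM on dishes. PLG, plasminogen, had 49.9 and 51.2 CPM on transwells, against 103 and 122 CPM on dishes. LEAP2, a liver peptide that blocks the ghrelin receptor, stood outside the lists with 27.5 and 30 CPM on transwells, against 115 and 147 CPM on dishes, and fell by 2.19 on the log2 scale. Of 27 liver transcription factors, 1 rose and 2 fell, with a median of 0.02 that became -0.02 with RLE scaling; HNF4A, a master regulator of the hepatocyte, had 316 and 300 CPM on transwells and 193 and 280 CPM on dishes. The median of the coagulation list was -0.12 against dish replicate 1 alone and -0.57 against dish replicate 2 alone.

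Cytosolic ribosomal protein genes were slightly lower, with 36 of 56 (64.3%) below the dish libraries, 1 above and a median of -0.29 (-0.19 against dish replicate 1 alone). Only 5 of the 56 fell, a share near the 7.53% of all tested genes. RPL38 had 277 and 285 CPM on transwells, against 497 and 408 CPM on dishes. Cholesterol synthesis showed no common direction, with 4 of 24 above, 4 below, a median of 0.04 (0.37 against dish replicate 1 alone and -0.14 against dish replicate 2 alone), and 2 rises beside 2 falls. Mitochondrially encoded mRNAs overlapped between the groups in all 13 cases.

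Pseudogenes were lower as a class. Of 1159 tested, 832 (71.8%) lay below the dish libraries and 68 (5.87%) above, with a median log2 fold change of -0.92; 339 fell and 7 rose. Of the 1159, 183 passed the filter only through the dish libraries and 11 only through the transwell libraries, so these had to differ. Among 873 processed pseudogenes, which are inserted copies of spliced mRNAs, the median was -1.04 and 735 (84.2%) lay below. Of these 873, 164 passed the filter only through the dish libraries and 3 only through the transwell libraries. Among the 215 that averaged 5 CPM or more across both groups, 194 (90.2%) lay below and 2 above, with a median of -1.06. Among 154 transcribed unprocessed pseudogenes, which keep the gene's introns, the median was 0.05. RPL13AP3 had 2.67 and 3.84 CPM on transwells, against 22.3 and 8.56 CPM on dishes, while RPL13A, the gene it copies, had 1150 and 1210 CPM on transwells and 1190 and 1620 CPM on dishes. PGK1P1 had 4.47 and 5.55 CPM on transwells, against 21.3 and 16.7 CPM on dishes. Reads of such copies and of their source genes can be split by counting, so each value is uncertain. Pseudogenes took 0.575% and 0.584% of transwell counts, against 0.955% and 0.786% of dish counts. Among 11280 nuclear protein-coding genes 3439 (30.5%) lay above and 2021 (17.9%) below, and 639 rose beside 626 falls. The part of sequencing and alignment in the pseudogene difference was not tested.

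**Figure D4:**
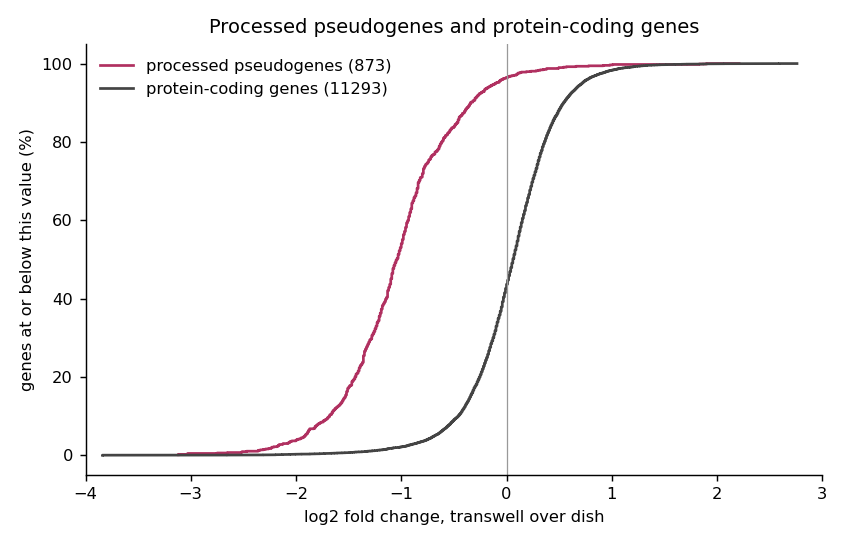
Cumulative share of genes in percent (y axis) by log2 fold change of transwell over dish (x axis), for 873 processed pseudogenes and 11293 protein-coding genes. The pseudogene curve lies left of the protein-coding curve, with a median of -1.04. It includes 164 pseudogenes that passed the filter only through the dish libraries and 3 only through the transwell libraries.

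The other HepG2 libraries place these levels. They share libraries with the comparison above, since the weighted cells are set against the same uncompressed transwells and the PEG-treated cells against the same dishes, so values are only put side by side. Under a weight, EGLN3 stood at 104 and 98.9 CPM, against a mean of 13.6 CPM on uncompressed transwells, and 63.6 CPM on isotonic dishes. NDRG1 stood at 1200 and 1120 CPM under a weight, against 461 CPM on uncompressed transwells, and 1040 CPM on dishes. IGFBP3 stood at 170 and 164 CPM under a weight, against 17.2 CPM on uncompressed transwells, and 246 CPM on dishes. For these genes the weighted libraries lay nearer to the dish mean than to the mean of the uncompressed transwells. CDC6, at 22 and 23.4 CPM under a weight, against 65.1 CPM on uncompressed transwells and 25.2 CPM on dishes, lay on the same side, and GSTA1 was at 3.21 and 2.78 CPM under a weight, against 21.4 CPM on uncompressed transwells and 4.71 CPM on dishes.

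Over whole lists, levels were set relative to the mean of the isotonic dishes as the median over members on the log2 scale. The hypoxia list stood at 0.04 and -0.06 in the weighted libraries, against -0.81 and -0.85 in the uncompressed transwell libraries. The replication list stood at 0.06 and 0.04 under a weight, against 0.76 and 0.73 without it. Gluconeogenesis stood at -0.03 and -0.12 under a weight, against -0.27 and -0.29 without it, although PCK1, at 151 and 161 CPM, lay between the 35.8 CPM of uncompressed transwells and the 354 CPM of dishes. ATF4 targets as a list did not follow that order, at 0.57 and 0.55 under a weight, against 0.37 and 0.42 without it. Of its rises, PSAT1, MTHFD2, WARS1, ALDH1L2, SHMT2, TRIB3 and SLC7A11 under a weight lay between the means of uncompressed transwells and dishes. AARS1 (211 and 225 CPM under a weight, against 215 CPM without it) and SESN2 (17.7 and 17.9 CPM, against 15.6 CPM) did not. In 4% PEG on dishes the hypoxia list stood at -1.06 and -0.89 and the replication list at -1.93 and -2.35. Single genes did not all follow the order of the hypoxia and replication lists either, and some stayed nearer to the uncompressed transwells under a weight. SULF2 had 53 and 49.5 CPM under a weight, against 51.3 CPM on uncompressed transwells and 18.4 CPM on dishes. HSPA8 had 903 and 854 CPM under a weight, against 1050 CPM on uncompressed transwells and 481 CPM on dishes. COL6A3 had 6.09 and 7.12 CPM under a weight, against 4.74 CPM on uncompressed transwells and 33.7 CPM on dishes.

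**Figure D5:**
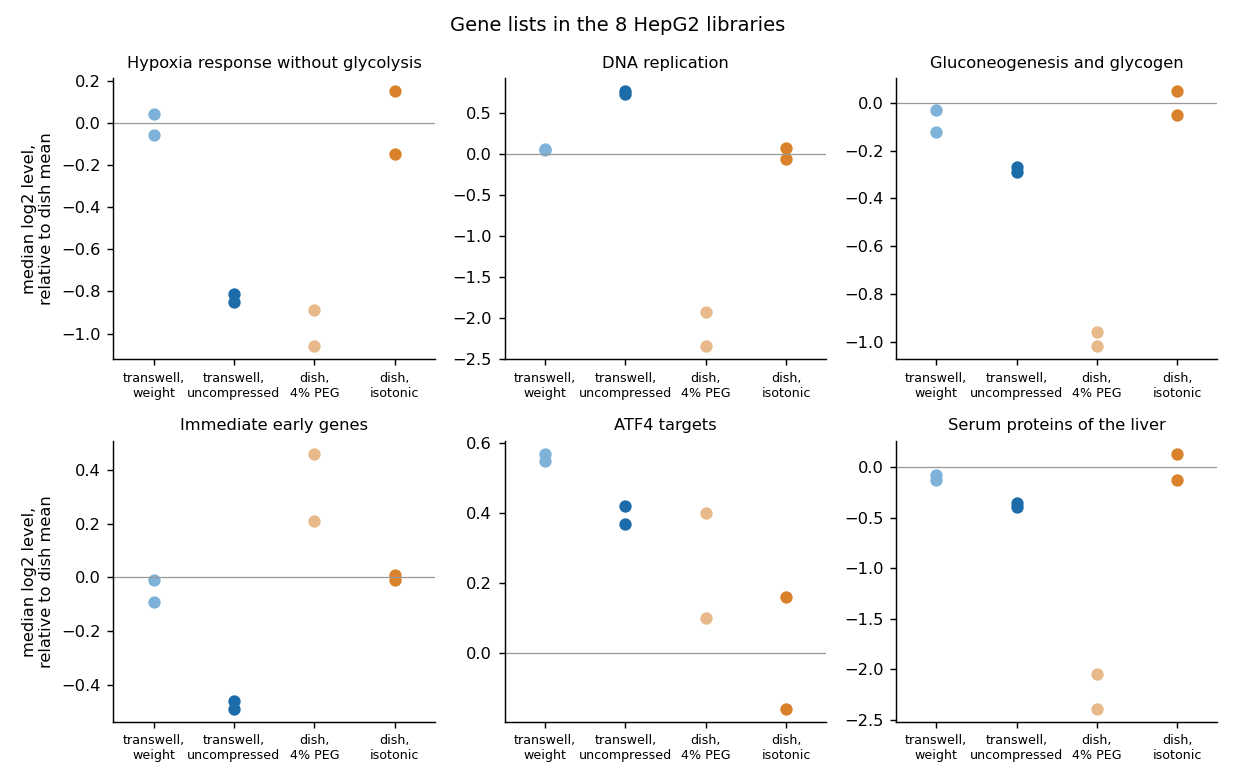
Median over list members of the log2 level relative to the mean of the isotonic dish libraries (y axis, a scale of its own in each panel) for 6 gene lists in each of the 8 HepG2 libraries (points, by group on the x axis). The hypoxia and replication lists in weighted transwells lie within 0.1 of the mean of the isotonic dishes, while uncompressed transwells lie at -0.81 and -0.85 for hypoxia and at 0.76 and 0.73 for replication.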

How the data were processed

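The deposited table holds raw counts per gene for 14 libraries, which the authors neither pooled nor normalised. Per the labels, RNA came from an RNeasy mini kit and was read as paired 100 bp reads on HiSeq or NovaSeq instruments. STAR, DESeq2 and the GRCh38 build stand in the submitters' processing notes; which program counted reads, and whether by strand, is not given in the sources used here. Gene types, coordinates, lengths and GC content came from GENCODE 29, promoters from RefSeq.

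Counts were fitted with edgeR 4.0.16 (R 4.3.3, limma 3.58.1) on the 4 libraries with TMM factors and robust quasi-likelihood estimation, for genes with at least 1 CPM in 2 libraries, and adjusted over all 13247 genes at 0.05. The filter used plain CPM; printed CPM values are TMM-scaled. The GC correction used per-library offsets from a lowess curve (span 0.3). After it, the coefficient of variation was still 0.0608 between transwell libraries and 0.183 between dish libraries. The fits were also run on simulated counts that gave all 4 libraries the same spread, so that run cannot show how such unequal pairs affect the calls. DESeq2 1.42.0 was an alternative. Of 1211 distinct symbols in 49 lists, 1203 were found, 38 under a current name.

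Members, lists and tests were chosen with earlier results of these data known. Named genes were to be the 12 largest calls per direction, of which there were none, and the 4 smallest p of each list. The 24 largest rises and 24 largest falls of the GC-corrected fit among named, non-overlapping genes with a mean of at least 5 CPM, and further list members, were chosen after their values were seen. Replicate numbers come from the sample titles and pair nothing; all 14 columns matched a sample.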

Additional observations from a re-analysis of the deposited data

How the results depend on the processing

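The count of 0 calls held under RLE, upper quartile and total-count scaling, a filter of 5 CPM, a minimum log2 fold change of 1, and without mitochondrially encoded or non-coding genes (the last added after seeing the data). Calls (higher, lower) numbered 1243 (346, 897) with no filter, 2038 (877, 1161) with all 14 libraries, 221 (54, 167) with the 8 HepG2 libraries, 475 (76, 399) with DESeq2 and 1669 (671, 998) with the GC correction. The numbers are not said to pair the samples, and the correlation of same-numbered deviations was 0.103; a replicate block gave 633 (141, 492) calls, and the block with the GC correction 2802 (1195, 1607). Leaving out each library gave 5 to 8979 calls, 0 to 4509 higher and 5 to 4470 lower: 5 without either transwell library, 8134 without dish replicate 1 and 8979 without dish replicate 2, where the lone dish library is assumed to vary like the transwell pair. Total-count scaling moved the median of all genes to 0.19 and the genes wholly above the dishes to 5647, which were 73.3% of those not overlapping, against 55.3% with TMM. Leaving out each library in turn, some medians changed sign. They ran from -0.11 to 0.08 for drug-metabolising enzymes (also -0.27 with the 5 CPM filter) and from -0.03 to 0.31 for NRF2 targets. For interferon genes they ran from -0.11 to 0.25 and for osmolyte genes from -0.2 to 0.1. These lists all reversed without dish replicate 1. The apolipoprotein median ran from -0.67 to 0.05 and the gene MT2A from -1.12 to 0.05, both reversed without dish replicate 2. The cause was not tested. Other medians crossed 0 too, among them mitosis (-0.08 to 0.6), cholesterol synthesis (-0.14 to 0.37) and fatty acid oxidation (-0.14 to 0.02). Apart from osmolyte genes, all these lists had medians smaller than the median difference between their dish libraries. The hypoxia median ran from -0.98 to -0.68 and the replication median from 0.64 to 0.88 over all alternatives. With 2 libraries a group and a dish pair that differed along GC content, the spread of the dish group limits the precision.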

Other observations

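Some further lists held calls of the GC-corrected edgeR fit. Of 21 tested genes of iron and copper handling, 6 fell and 1 rose. TFRC, the transferrin receptor, had 1050 and 1060 CPM on transwells, against 1810 and 1590 CPM on dishes. ID2, a target of BMP signals, had 144 and 129 CPM on transwells, against 301 and 283 CPM on dishes. The rise was STEAP3, a ferrireductase of endosomes, with 18.8 and 20.2 CPM on transwells, against 7.94 and 12.3 CPM on dishes.

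Of 15 tested liver progenitor markers, 5 rose (SPP1 among them) and 0 fell, although 6 lay below the dish libraries and 4 above. The median log2 fold change of this list was 0, and the fit on 14 libraries called 4 members higher and 3 lower. LIN28B, a fetal RNA-binding protein, had 188 and 181 CPM on transwells, against 127 and 99.2 CPM on dishes. PROM1, the surface protein CD133, had 18.9 and 21.6 CPM on transwells, against 12.6 and 9.7 CPM on dishes. Among 22 tested genes of the urea cycle and amino acid breakdown, 3 rose and 3 fell. ASS1, argininosuccinate synthase, had 41.4 and 42.5 CPM on transwells, against 19 and 27.7 CPM on dishes, and BHMT, a methionine-forming enzyme, had 5.6 and 6.1 CPM on transwells, against 13.6 and 13.9 CPM on dishes. Among 15 tested osmolyte genes, 3 rose and 1 fell; the betaine carrier SLC6A12 had 1.32 and 1.43 CPM on transwells, against 0.332 and 0.407 CPM on dishes, and passed the filter only through the transwell libraries. These genes were chosen after their values were seen.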
